A study of Mus musculus with 4 samples.

Results

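The Ifitm genes of the mouse are described here by 4 members, Ifitm1, Ifitm2, Ifitm3 and Ifitm6, out of 32285 features counted in each library. They were taken by symbol from the feature annotation, and all 4 were found. Their levels in these libraries were known when they were chosen, so every value below is a description of the libraries and carries no test. The cells were CD45-positive leukocytes of the liver of IL-22sgBFP mice, a reporter strain in which a blue fluorescent protein marks cells that use the Il22 gene. The 4 groups were reporter-positive (BFP-positive) cells 12 h after injection of MC38 cells into the spleen, BFP-positive cells before injection (0 h), reporter-negative (BFP-negative) cells at 12 h and BFP-negative cells at 0 h. MC38 is a mouse colon carcinoma line that reaches the liver through the portal blood when injected into the spleen. The cells were given in PBS, and animals given PBS alone were not analysed here, so the injection itself and the tumour cells cannot be told apart. Age, sex and the number of mice behind a library are not given in the sources used here. Each group held 1 library, so a ratio below compares 2 libraries and not 2 conditions.

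Ifitm proteins are small membrane proteins that interferons induce in most cells. Studies of the human proteins place IFITM1 mainly at the cell surface and IFITM2 and IFITM3 mainly on endosomes and lysosomes, and all of them hinder the fusion of enveloped viruses with the host membrane. Ifitm3 is also expressed without infection by many cells, myeloid cells among them. Ifitm6 is a mouse member best known from myeloid cells, and the role of its protein is less well described.

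In GRCm38 the 4 genes lie on chromosome 7 within 63088 bases. Ifitm2 (ENSMUSG00000060591) lies on the minus strand at chr7:140954837-140955987. Ifitm1 (ENSMUSG00000025491) follows on the plus strand at chr7:140967221-140969825. Ifitm3 (ENSMUSG00000025492) lies on the minus strand at chr7:141009586-141010770, and Ifitm6 (ENSMUSG00000059108) on the minus strand at chr7:141015699-141017924. Of the other family genes counted, the bone gene Ifitm5 lies just outside this stretch, Ifitm7 is on chromosome 16 and Ifitm10 lies farther along chromosome 7. The promoters are printed because Ifitm1 stood apart from the other members in the values that follow. Each line gives 100 bases before and 30 bases after a start site of the gene in RefSeq (GRCm38.p6), 5′ to 3′ on the strand of the gene. For Ifitm1 and Ifitm6 these start sites lie 855 and 1032 bases inside the gene spans above, within 36 and 16 bases of the start of 1 of the 3 annotated transcripts of each gene, so the windows cover neither gene's outermost start. Capitals mark a match to the core of the interferon-stimulated response element (GAAANNGAAA) or to the gamma-activated site (TTCNNNGAA).
Ifitm1 promoter, chr7:140967976-140968105, plus strand: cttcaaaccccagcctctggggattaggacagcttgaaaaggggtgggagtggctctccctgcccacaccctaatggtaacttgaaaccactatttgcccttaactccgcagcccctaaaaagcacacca
Ifitm2 promoter, chr7:140955932-140956061, minus strand: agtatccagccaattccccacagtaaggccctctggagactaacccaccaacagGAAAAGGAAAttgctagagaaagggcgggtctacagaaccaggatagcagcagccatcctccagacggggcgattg
Ifitm3 promoter, chr7:141010715-141010844, minus strand: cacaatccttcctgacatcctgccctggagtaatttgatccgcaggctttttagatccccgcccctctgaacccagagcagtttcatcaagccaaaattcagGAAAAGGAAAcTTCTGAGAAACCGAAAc
Ifitm6 promoter, chr7:141016863-141016992, minus strand: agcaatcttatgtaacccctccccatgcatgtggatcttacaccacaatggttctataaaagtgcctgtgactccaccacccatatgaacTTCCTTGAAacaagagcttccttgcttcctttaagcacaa

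Both motifs were searched on both strands of the whole RefSeq window of 300 bases, of which 250 lie before the start. The response element core was found once in Ifitm2, at bases 55 to 64 of the printed stretch, and in Ifitm3 at bases 103 to 112 and 120 to 129. A gamma-activated site was found in Ifitm3 at bases 114 to 122, where it overlaps the second response element core, and in Ifitm6 at bases 91 to 99. No match to either motif lay in the Ifitm1 window, which covers an internal start site and not the outermost one. Among 32851 promoters of the same length, 3.44% held the response element core and 8.3% the gamma-activated site. Of 25 genes matched from a list of 35 interferon response genes, 14 held the response element core and 5 the gamma-activated site. A match is a run of letters and was not tested for binding.

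The genes are alike enough for the assignment of molecules to be uncertain. In the last 500 bases of the transcripts, where these libraries were counted, 41.9% of the 50-base stretches of Ifitm2 also occur in other genes, Ifitm3 and several predicted genes among them. The share was 14.0% for Ifitm3 and 11.8% for Ifitm1, while Ifitm6 shared 0 such stretches. Ifitm2 also overlaps the minus-strand gene model Gm45717. The molecules of Ifitm1, Ifitm2 and Ifitm3 may therefore be split or lost in a way that differs between the genes.

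After filtering, 1348 and 288 cells of the BFP-positive libraries of 12 h and 0 h remained, and 9635 and 8002 cells of the BFP-negative libraries of 12 h and 0 h. Their median depths were 3715.5, 3386, 2167 and 1797.5 UMIs (unique molecular identifiers, each marking a captured transcript) in the same order. The BFP-negative library of 0 h held more cells in clusters of few UMIs that were left unnamed, with 22.1% against 4.90% at 12 h. Between 0 and 116 cell barcodes were shared by a pair of libraries, at most 2.0% of the smaller one. Ptprc, which encodes CD45, had a UMI in 83.5%, 79.5%, 61.8% and 65.5% of the cells of the 4 libraries. Il22 had 0 UMIs in 1348 BFP-positive cells of 12 h, where a count of 0 allows up to 3 cells with a UMI (0.223%) and sets no limit on cells that express the gene, and 6 UMIs in 3 of 288 BFP-positive cells of 0 h. It had 1 UMI in 9635 BFP-negative cells of 12 h and 16 UMIs in 7 of 8002 BFP-negative cells of 0 h. BFP-positive below names the sorted fraction, not cells with an Il22 transcript. Monocyte-like cells made up 1057 of the 1348 cells of that fraction after 12 h and 141 of its 288 cells before injection. The BFP-negative libraries held 571 monocyte-like cells at 12 h and 143 at 0 h.

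Levels are given as CPM, the UMIs of a gene summed over the cells of a class in 1 library, per 1000000 UMIs of those cells. A UMI stands for 1 captured transcript end, so levels were not divided by transcript length. Intervals are exact 95% intervals and cover counting error only, since cells of 1 library are not replicates. In these sums, fewer cells of a subtype and fewer transcripts per cell cannot be told apart.

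Across the classes, Ifitm transcripts were a myeloid and basophil feature, and each member had its own order of cell types. The 4 members together made up 16463 CPM in neutrophil-like cells of the BFP-positive library of 12 h and 13805 CPM in those of the BFP-negative library of 12 h. In monocyte-like cells the sum was 8858, 7224, 8177 and 9721 CPM in the BFP-positive libraries of 12 h and 0 h and the BFP-negative libraries of 12 h and 0 h. Among T-cell-like, NK-or-ILC1-like and B-cell-like cells of the BFP-negative libraries it stayed between 27.6 and 96.6 CPM.

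**Figure D1:**
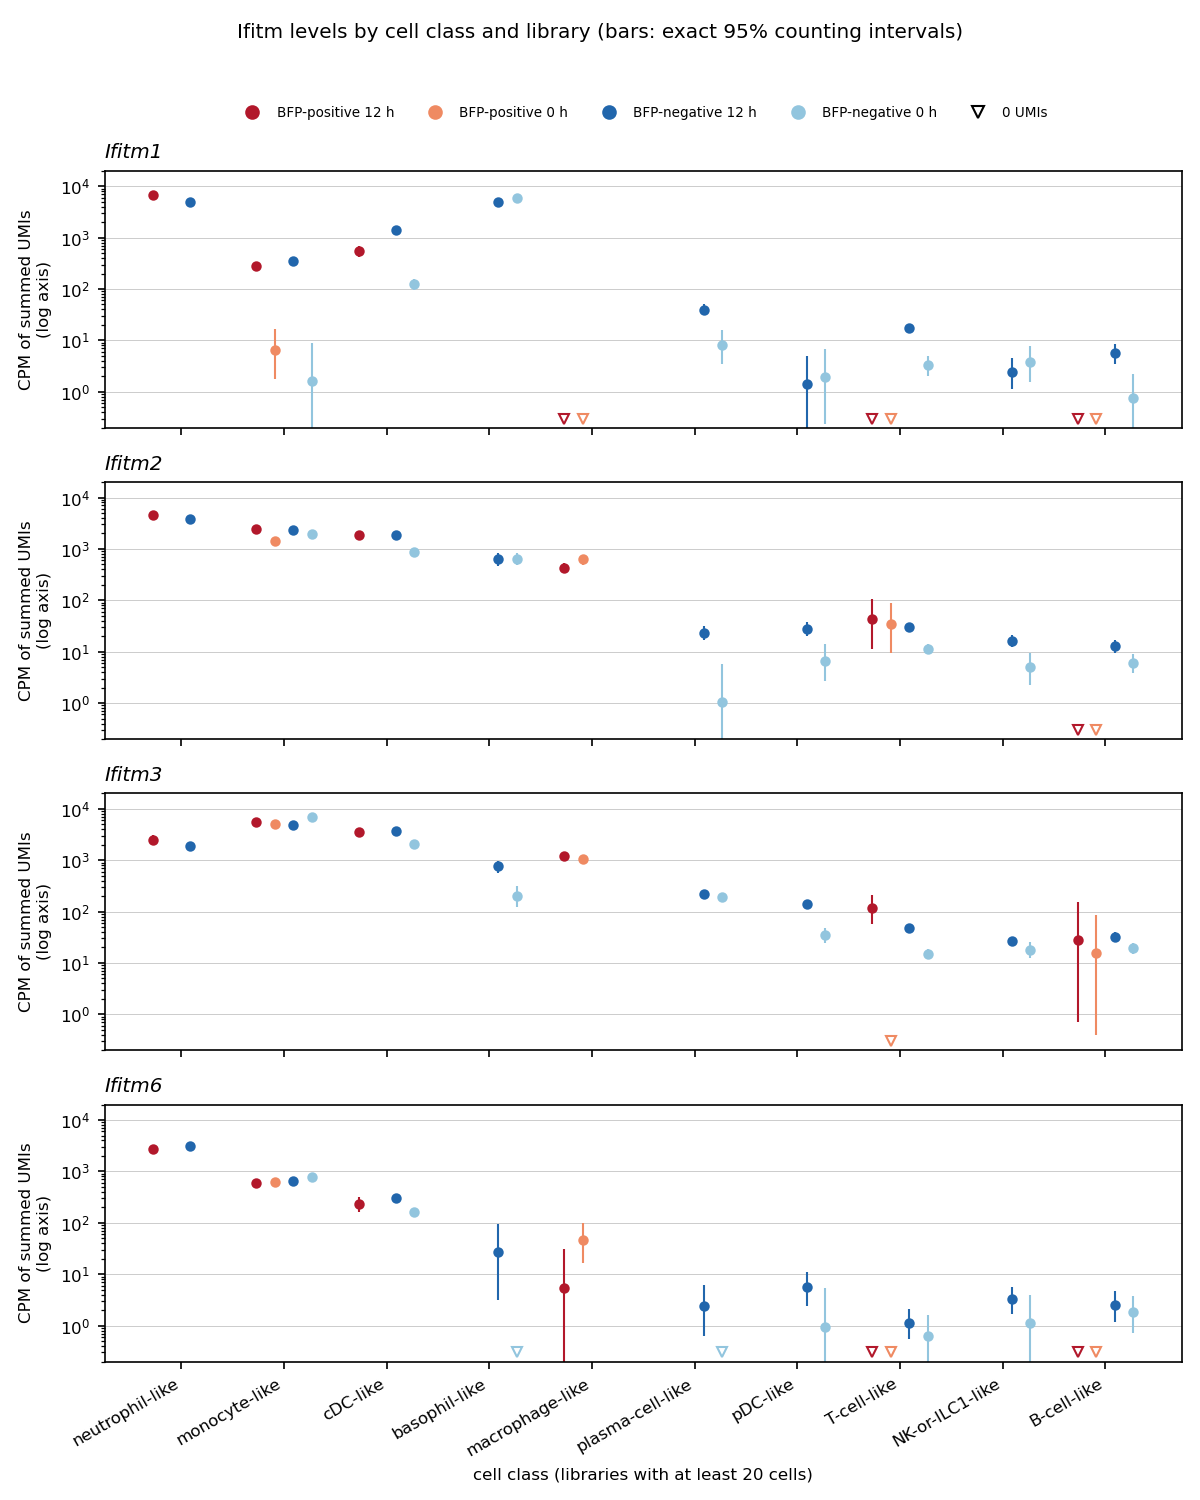
Level of each Ifitm gene (CPM of summed UMIs, log axis) in each cell class, 1 point per library with at least 20 cells of the class, with exact 95% counting intervals; open triangles mark libraries with 0 UMIs. Ifitm1 was highest in neutrophil-like and basophil-like cells and Ifitm3 in monocyte-like cells, and the lymphoid classes lay low for all 4 genes.

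Ifitm3 was the leading member in monocyte-like cells, in macrophage-like cells and in conventional dendritic cell-like (cDC-like) cells. Its level in monocyte-like cells was 5574 and 5133 CPM in the BFP-positive libraries of 12 h and 0 h and 4806 and 7019 CPM in the BFP-negative libraries of 12 h and 0 h. A UMI of Ifitm3 was found in 97.3% to 99.3% of these cells. cDC-like cells followed with 3581 CPM in the BFP-positive library of 12 h, and with 3706 and 2109 CPM in the BFP-negative libraries of 12 h and 0 h. Neutrophil-like cells came next with 2489 and 1928 CPM in the BFP-positive and BFP-negative libraries of 12 h, and macrophage-like cells with 1210 and 1064 CPM in the BFP-positive libraries of 12 h and 0 h. The intervals of the macrophage-like values overlap, so these neighbours do not differ beyond their counting error.

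Ifitm2 kept the same set of cells but put neutrophil-like cells first. It reached 4667 and 3772 CPM in neutrophil-like cells of the BFP-positive and BFP-negative libraries of 12 h. In monocyte-like cells it stood at 2403 and 1452 CPM in the BFP-positive libraries of 12 h and 0 h and at 2377 and 1925 CPM in the BFP-negative libraries of 12 h and 0 h. Those of the 12 h libraries differ by less than their counting error. Basophil-like cells, found in the BFP-negative libraries with 25 cells at 12 h and 39 at 0 h, had 637 and 632 CPM at these times.

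Ifitm6 was highest in neutrophil-like cells, followed by monocyte-like and then cDC-like cells. It stood at 2687 and 3117 CPM in neutrophil-like cells of the BFP-positive and BFP-negative libraries of 12 h. Monocyte-like cells held 594.5, 632.5, 637 and 775 CPM in the BFP-positive libraries of 12 h and 0 h and the BFP-negative libraries of 12 h and 0 h. cDC-like cells held 232 CPM in the BFP-positive library of 12 h, and 306 and 163 CPM in the BFP-negative libraries of 12 h and 0 h. Macrophage-like cells, which had Ifitm2 and Ifitm3 in plenty, held 1 and 6 UMIs of Ifitm6 in the BFP-positive libraries of 12 h and 0 h. Basophil-like cells held 2 UMIs of Ifitm6 at 12 h and 0 UMIs at 0 h.

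Ifitm1 had another order. Basophil-like cells carried it in every cell at both times, at 4966 CPM at 12 h and 5796 CPM at 0 h, and it made up 77.8% and 87.4% of their Ifitm UMIs at these times. Neutrophil-like cells held 6619 and 4989 CPM in the BFP-positive and BFP-negative libraries of 12 h. The 10 neutrophil-like cells of the BFP-negative library of 0 h held 9 UMIs, or 379 CPM, and are too few for a ratio. Macrophage-like cells held 0 UMIs of Ifitm1 in all 4 libraries, where the 3 counts that a count of 0 allows correspond to 16.4 CPM in the BFP-positive library of 12 h and 22.8 CPM in that of 0 h. Monocyte-like and cDC-like cells had Ifitm1 mainly at 12 h, as described next.

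In monocyte-like cells Ifitm1 was high in both libraries of 12 h and near 0 in both of 0 h. It had 1231 UMIs (286.5 CPM) in the BFP-positive library of 12 h, against 4 UMIs (6.504 CPM) in that of 0 h. The BFP-negative libraries held 1023 UMIs (357 CPM) at 12 h and 1 UMI (1.61 CPM) at 0 h. The libraries of 12 h thus lay far above those of 0 h in either sort. The ratio of 12 h to 0 h was 44.1 (95% interval 17.2 to 162) in the BFP-positive libraries, and 168 without the cell of each library that held the most Ifitm1. In the BFP-negative libraries it was 222 (39.7 to 8767), a value that rests on 1 UMI at 0 h. A UMI of Ifitm1 was found in 25.5% of monocyte-like cells of the BFP-positive library of 12 h and 34.3% of those of the BFP-negative library of 12 h, against 1.42% and 0.699% in the matching libraries of 0 h. Median depths of these cells were 4100, 5029, 4003 and 4420 UMIs in the order given. After each cell was thinned to 1000 UMIs, the shares were 14.0% and 16.96% at 12 h, against 0% and 0.699% at 0 h in the same order of sorts. B-cell-like cells, given for comparison, held a UMI of Ifitm1 in 0.958% of cells of the BFP-negative library of 12 h and 0.146% of those of 0 h, at median depths of 1594 and 1715 UMIs.

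The other members differed less between the times in monocyte-like cells, and not in 1 direction. A gene was counted as higher or lower where its CPM ratio was at least 1.5 or at most 1/1.5, and as measured where both sums held at least 50 UMIs together and the higher sum at least 20 CPM. Ifitm2 was higher at 12 h than at 0 h in the BFP-positive libraries, at a ratio of 1.66 (1.55 to 1.77), and within the fold in the BFP-negative libraries at 1.24 (1.16 to 1.31). Ifitm3 had a ratio of 1.09 (1.05 to 1.13) in the BFP-positive libraries and of 0.685 (0.662 to 0.709) in the BFP-negative libraries, close to the fold and past it at 0.659 without doublet removal and at 0.666 with finer clusters (Leiden resolution 2). For Ifitm6 the ratios were 0.940 (0.845 to 1.05) and 0.822 (0.743 to 0.911) in the BFP-positive and BFP-negative libraries. In the BFP-positive libraries 2 of 4 members were thus higher and 0 lower, where 10.8% of 5122 measured genes were higher and 19.6% lower. In the BFP-negative libraries 1 of 4 members was higher and 0 lower, where 11.3% of 5014 measured genes were higher and 10.9% lower. The median log2 ratio of all measured genes was −0.10 in the BFP-positive libraries and −0.02 in the BFP-negative libraries. Of 17 immediate early and dissociation genes, 2 were higher and 6 lower in the BFP-positive libraries, and 2 were higher and 3 lower in the BFP-negative libraries. Their part in the Ifitm values was not tested.

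**Figure D2:**
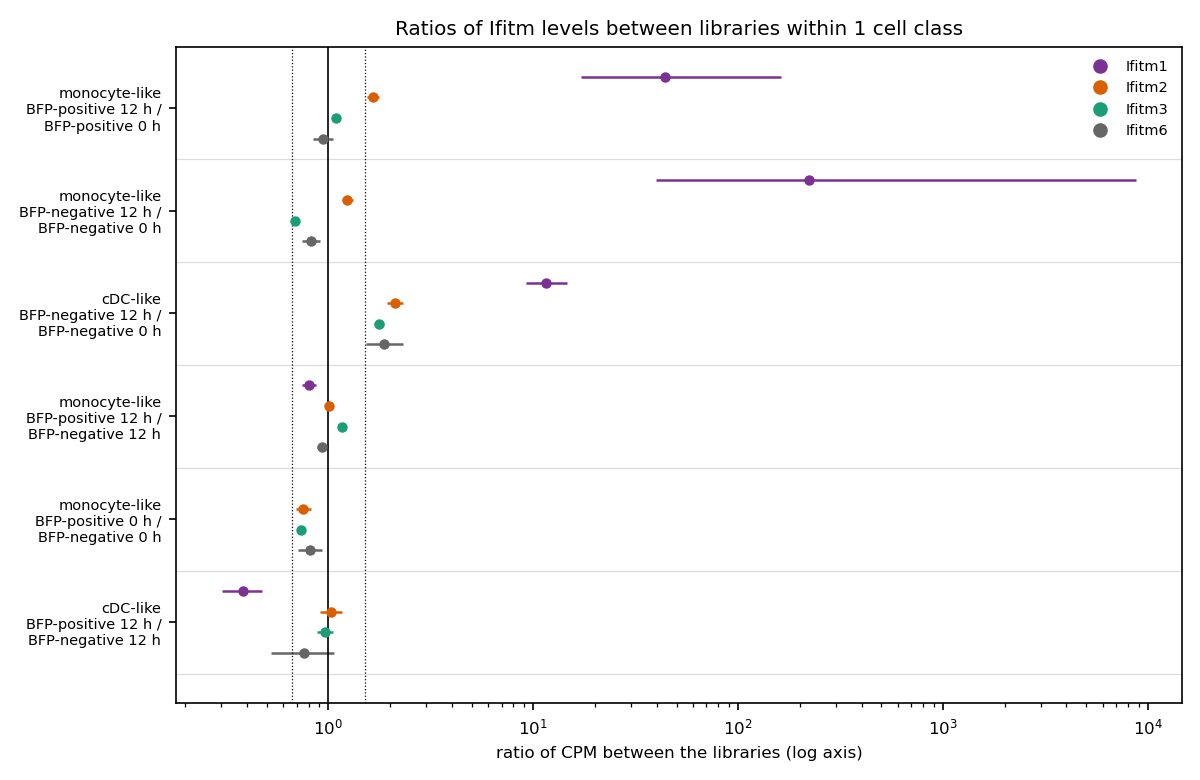
Ratio of the CPM of each Ifitm gene between 2 libraries within monocyte-like or cDC-like cells (log axis), with exact 95% counting intervals; dotted lines mark 1.5-fold in either direction. Ifitm1 stood far to the right in the comparisons of 12 h with 0 h, and the other members lay between 0.685 and 2.11 in them.

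The monocyte-like class was made of different cells in the 4 libraries, so the members were also read within its 8 sub-clusters, M1 to M8. M1, led by S100a8, Wfdc21, Lcn2 and Lrg1, held 27.4% of the class in the BFP-positive library of 12 h and 2.84% in that of 0 h, and 37.1% and 0.699% in the BFP-negative libraries of 12 h and 0 h. M4, led by AI839979 and Rnase6, held 2.74% and 12.1% in the BFP-positive libraries of 12 h and 0 h and 15.9% and 70.6% in the BFP-negative libraries of 12 h and 0 h. M6, led by the non-classical monocyte genes Eno3, Fabp4 and Ace, held 7.001% and 51.1% in the BFP-positive libraries of 12 h and 0 h and 2.28% and 10.5% in the BFP-negative ones. The cells of 12 h and 0 h thus lay mostly in different sub-clusters.

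Since the sub-clusters held different shares of 12 h and 0 h cells, their levels were compared within each library of 12 h. In the BFP-positive library Ifitm1 stood at 486 CPM in M1, 292 CPM in M5 (led by Ccl24, Arg1 and Spp1), 245 CPM in M3 (led by Rsad2 and Ifit1), 130.4 CPM in M6, 123 CPM in M4 and 95.3 CPM in M2 (led by class II antigen presentation and C1q genes). In the BFP-negative library it stood at 751 CPM in M5, 444 CPM in M1, 355 CPM in M3, 228 CPM in M4 and 116 CPM in M2, with M6 left out at 13 cells. M1, M3 and M5 were thus the 3 highest in both libraries, and M2 the lowest. Ifitm3 was highest in M3, the sub-cluster led by interferon response genes, at 8181 CPM in the BFP-positive and 6602 CPM in the BFP-negative library, followed by M4 at 6690.1 and 6080.4 CPM. Ifitm2 was highest in M4, at 3345 CPM in the BFP-positive and 2710.2 CPM in the BFP-negative library, followed by M1 at 3159 and 2647 CPM. Ifitm6 was highest in M1, at 862.5 and 785 CPM in the BFP-positive and BFP-negative libraries, then in M4, at 798 and 714 CPM. It was lowest in M2 in both libraries, at 308 and 309.5 CPM. M7 and M8, with 46 and 27 cells, were led by T and NK cell genes and by B cell genes.

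Ifitm1 was also higher at 12 h within the sub-clusters that both times shared. In M4 it had 97 UMIs in 91 cells of the BFP-negative library of 12 h (228 CPM) and 1 UMI in 101 cells of that of 0 h (2.19 CPM), a ratio of 104 (18.2 to 4152). In M6 it had 26 UMIs in 74 cells of the BFP-positive library of 12 h (130.4 CPM) and 1 UMI in 72 cells of that of 0 h (4.34 CPM), a ratio of 30.1 (4.94 to 1233). In M2 it had 98 and 3 UMIs in the BFP-positive libraries of 12 h and 0 h, a ratio of 5.21 (1.73 to 25.7). All 3 rest on 1 to 3 UMIs at 0 h, and few cells held the molecules at 12 h: in M4, 65.0% of the UMIs of the BFP-negative library lay in 5 of 91 cells. Within M4 the ratio of Ifitm3 was 0.829 (0.788 to 0.873), nearer to 1 than the 0.685 of the whole class. Within M6 the ratios of Ifitm2 and Ifitm3 were 1.49 (1.27 to 1.74) and 0.949 (0.872 to 1.03).

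**Figure D3:**
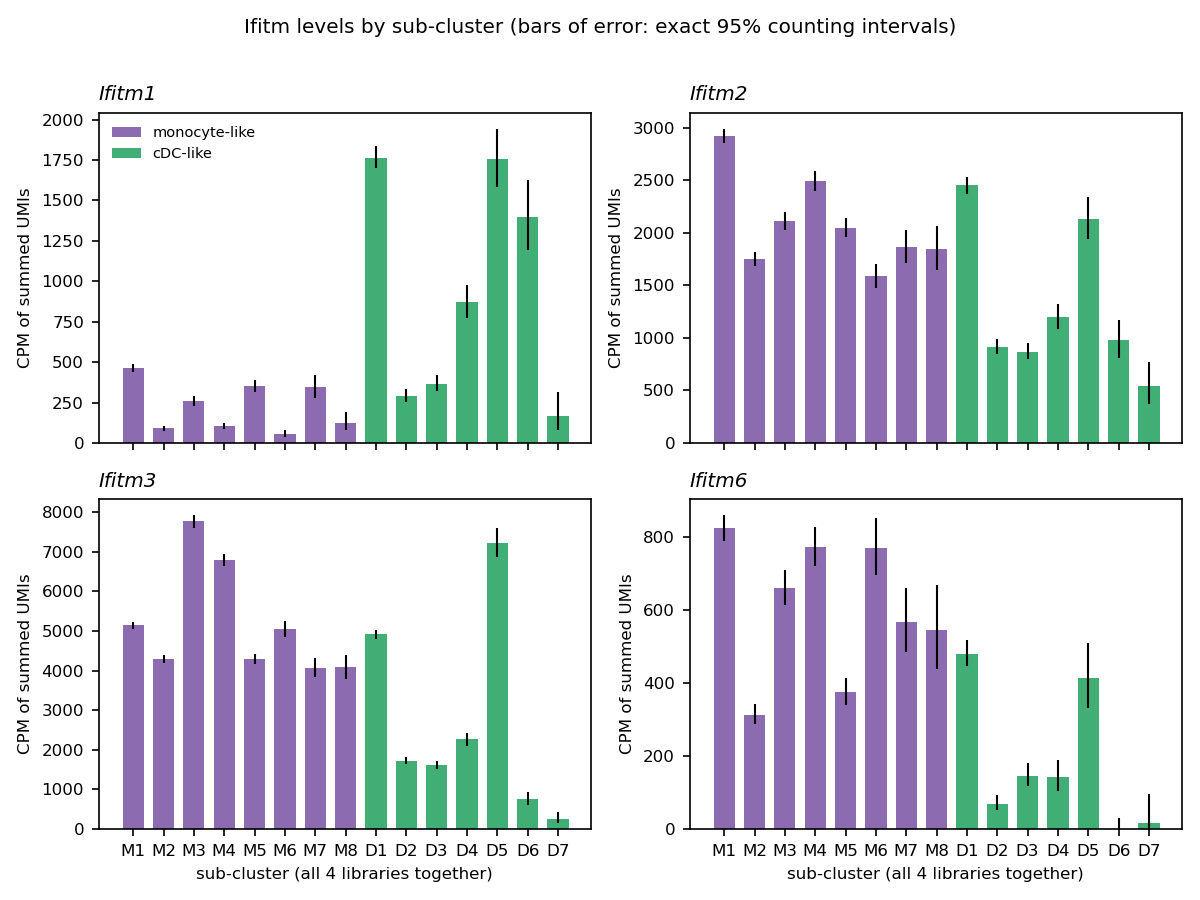
Level of each Ifitm gene (CPM of UMIs pooled over all 4 libraries, whose shares of each sub-cluster differ, axis from 0) in the sub-clusters of monocyte-like (M1 to M8) and cDC-like cells (D1 to D7), with exact 95% counting intervals. In these pooled levels Ifitm1 was higher in D1, D4, D5 and D6 than in any monocyte sub-cluster, and Ifitm3 was highest in the 2 sub-clusters led by interferon response genes, M3 and D5.

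The summed neutrophil markers were higher at 12 h in monocyte-like cells, as Ifitm1 was, but the markers did not all share this direction. The 10 neutrophil markers summed to 2336 CPM in monocyte-like cells of the BFP-positive library of 12 h and 87.8 CPM in those of 0 h, and to 3553 and 57.9 CPM in the BFP-negative libraries of 12 h and 0 h. Of the 10 markers, 8, 5, 7 and 4 had a UMI in these libraries in that order. Stfa2 was at 0 UMIs in all 4, Retnlg at 0 in the BFP-positive library of 12 h, and Ly6g and Mmp9 at 0 in the BFP-negative library of 12 h. S100a8 alone gave 2121 and 3115 CPM at 12 h and 3.25 and 11.3 CPM at 0 h in the BFP-positive and BFP-negative libraries. S100a9 and Il1r2 were also higher at 12 h in both sorts. G0s2 was lower at 12 h, with 5.59 against 17.9 CPM in the BFP-positive and 4.88 against 12.9 CPM in the BFP-negative libraries. Csf3r had 49.1 CPM at 12 h and 63.4 CPM at 0 h in the BFP-positive libraries, and 41.5 and 32.2 CPM in the BFP-negative ones. Neutrophil-like cells held 367013 and 260412 CPM of the marker list in the BFP-positive and BFP-negative libraries of 12 h. Among monocyte-like cells with 0 UMIs of any neutrophil marker, Ifitm1 still had 346 UMIs in 542 cells of the BFP-positive library of 12 h (183.5 CPM), against 4 UMIs in 105 cells of 0 h (8.90 CPM). Likewise 259 UMIs in 229 cells remained in the BFP-negative library of 12 h (258 CPM), against 0 UMIs in 120 cells of 0 h. Without the cells that held a neutrophil marker, the ratio of Ifitm2 in the BFP-positive libraries was 1.38 and no longer past the fold. The ratio of Ifitm6 in the BFP-negative libraries was then 0.595, past the fold on the low side. This filter kept unlike shares of the class, with 51.3% at 12 h and 74.5% at 0 h in the BFP-positive libraries. In the BFP-negative libraries it kept 40.1% at 12 h and 83.9% at 0 h. The share of all genes past the fold under this filter is not given. The basophil markers, a set of 10, summed to between 4.83 and 12.8 CPM in the monocyte-like cells of the 4 libraries, with 1 or 2 of them detected.

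In cDC-like cells all 4 members were higher at 12 h than at 0 h in the BFP-negative libraries, where 7.45% of 4711 measured genes were higher and 9.93% lower. Ifitm1 stood at 1418 CPM in 452 cells at 12 h and at 123 CPM in 121 cells at 0 h, a ratio of 11.5 (9.23 to 14.6), and of 19.5 with finer clusters. The share of cells holding an Ifitm1 UMI was 57.1% at 12 h, against 7.44% at 0 h, and after thinning it was 40.2%, against 5.88%. The 80 UMIs of 0 h lay in 9 cells. Ifitm2 stood at 1847 CPM at 12 h and 876 CPM at 0 h, a ratio of 2.11 (1.93 to 2.30). Ifitm3 stood at 3706 CPM at 12 h and 2109 CPM at 0 h, a ratio of 1.76 (1.66 to 1.86), and Ifitm6 at 306 and 163 CPM, a ratio of 1.88 (1.53 to 2.32). The level of Ifitm1 thus differed more between the libraries than that of any other member, as in monocyte-like cells. Neutrophil markers summed to 38.1 CPM at 12 h and 12.3 CPM at 0 h in these cells, and among cells without them the ratio of Ifitm1 was 9.79.

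The make-up of the class differed between the times as well. D1, led by Clec4b1 and Ltb4r1, held 44.7% of cDC-like cells at 12 h and 26.45% at 0 h in the BFP-negative libraries. D2, led by genes of plasmacytoid dendritic cells such as Siglech, held 21.0% at 12 h and 41.3% at 0 h. In the BFP-negative library of 12 h D1 had 2198, 2613.5, 5145 and 500.2 CPM of Ifitm1, Ifitm2, Ifitm3 and Ifitm6, while D2 had 425, 1113, 2006.5 and 80.6 CPM. Within D1 the ratio of 12 h to 0 h was 10.5 (7.60 to 14.96) for Ifitm1, with 2198 CPM at 12 h and 209 CPM at 0 h, and 1.51 (1.34 to 1.70) for Ifitm2. For Ifitm3 and Ifitm6 it was 1.19 (1.10 to 1.29) and 1.23 (0.960 to 1.59), both within the fold. The 37 UMIs of Ifitm1 in D1 at 0 h came from 4 of 32 cells. Within D2 Ifitm1 had 425 CPM at 12 h and 26.5 CPM at 0 h, a ratio of 16.1 (7.24 to 44.3), and Ifitm3 had a ratio of 1.72 (1.501 to 1.98). Over all libraries pooled, D3, led by Xcr1 and Naaa of the type 1 lineage, had 367, 869.5, 1608 and 147 CPM of Ifitm1, Ifitm2, Ifitm3 and Ifitm6. Pooled in the same way, D4, 47 cells led by T and NK cell genes such as Gzma and Cd3e, had 869 CPM of Ifitm1. D4 held 8.19% of the class at 12 h and 8.26% at 0 h in the BFP-negative libraries. Also pooled, D6, 22 cells led by Prtn3, Mpo and Ctsg, had more Ifitm1 (1397 CPM) than Ifitm3 (761 CPM) and 0 UMIs of Ifitm6. D7, 16 cells led by Ccr7 and Fscn1, had the least Ifitm3 of the class at 255 CPM.

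Between the sorted fractions no member was past the fold in the monocyte-like class, while Ifitm1 was past it within 2 of its sub-clusters. At 12 h the ratio of BFP-positive to BFP-negative cells was 0.803 (0.739 to 0.874) for Ifitm1, 1.01 (0.980 to 1.04) for Ifitm2, 1.16 (1.14 to 1.18) for Ifitm3 and 0.933 (0.878 to 0.991) for Ifitm6. None of the 4 was past the fold, where 7.83% of 4930 measured genes were higher and 13.5% lower. At 0 h, where Ifitm1 had too few UMIs to be measured, the ratios of Ifitm2, Ifitm3 and Ifitm6 were 0.754 (0.691 to 0.823), 0.731 (0.698 to 0.766) and 0.816 (0.712 to 0.934). All 3 were lower in the BFP-positive library but within the fold, where 14.6% of 2996 genes were higher and 10.9% lower. Within M1 at 12 h, the BFP-positive to BFP-negative ratios lay between 1.10 and 1.22 for the 4 members. In the other 4 sub-clusters with enough cells Ifitm1 was below 1. It had 0.821 (0.571 to 1.196) in M2 and 0.692 (0.542 to 0.888) in M3, and was past the fold in M4 and M5. M4 had a ratio of 0.539 (0.296 to 0.920), on 16 UMIs in 29 BFP-positive cells. M5 had Ifitm1 at 292 CPM in the BFP-positive library and 751 CPM in the BFP-negative library of 12 h, a ratio of 0.389 (0.314 to 0.4825). There 80.0% of the UMIs of the BFP-negative library came from 5 of 37 cells. The share of all genes past the fold is not given for any sub-cluster, so these calls cannot be set against it.

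In the cDC-like cells of the 2 fractions at 12 h Ifitm1 was past the fold on the low side. The 35 BFP-positive cells had 540 CPM of Ifitm1 and the 452 BFP-negative cells 1418 CPM, a ratio of 0.381 (0.301 to 0.476). The ratios of Ifitm2, Ifitm3 and Ifitm6 were 1.03 (0.908 to 1.16), 0.966 (0.883 to 1.06) and 0.759 (0.522 to 1.07), the last past the fold, at 0.629, without the cell of each library that held the most. D1 made up 71.4% of the BFP-positive and 44.7% of the BFP-negative cells. Within D1 the ratios were 0.288 (0.223 to 0.366) for Ifitm1, 0.887 (0.777 to 1.01) for Ifitm2, 0.743 (0.671 to 0.821) for Ifitm3 and 0.5315 (0.353 to 0.772) for Ifitm6, so that Ifitm6 was past the fold there too, on 29 UMIs in 25 BFP-positive cells. For D1, too, the share of all genes past the fold is not given. In the whole class 1 of 4 members was thus lower and 0 higher, where 30.2% of 4457 measured genes were lower and 15.7% higher, and the median log2 ratio of all genes was −0.13. A ratio past the fold is thus common in this comparison of few cells. In macrophage-like cells of the BFP-positive libraries, Ifitm2 had 427 CPM at 12 h and 623 CPM at 0 h, a ratio of 0.685 (0.496 to 0.946) that was past the fold in 6 of 10 alternative settings, and Ifitm3 a ratio of 1.14 (0.916 to 1.42). Neither was past the fold at the settings reported, where 20.2% of 846 genes were higher and 10.4% lower. Over all of these the log2 ratio had a median of 0.12.

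Lymphocytes and plasmacytoid dendritic cell-like (pDC-like) cells held few Ifitm molecules. In pDC-like cells of the BFP-negative libraries Ifitm3 stood at 139 CPM at 12 h and 35.5 CPM at 0 h, a ratio of 3.92 (2.75 to 5.73), where 2.41% of 4645 measured genes were higher and 5.45% lower. In T-cell-like cells Ifitm3 stood at 47.4 CPM at 12 h and 15.2 CPM at 0 h, a ratio of 3.12 (2.496 to 3.94). Ifitm2 had 30.4 and 11.4 CPM there, a ratio of 2.67 (2.05 to 3.51), so that 2 of 2 measured members were higher, where 0.65% of 4618 measured genes were higher and 1.43% lower. In B-cell-like cells Ifitm3 had 32.7 CPM at 12 h and 19.1 CPM at 0 h, a ratio of 1.71 (1.27 to 2.32), where 0.943% of 4666 genes were higher and 3.99% lower. In NK-or-ILC1-like cells it had 26.7 and 18.2 CPM, a ratio of 1.47 (0.983 to 2.25) within the fold, where 1.04% of 5097 genes were higher and 4.34% lower. In the sorted T-cell-like cells of 12 h, Ifitm3 had 11 UMIs in 37 BFP-positive cells and a ratio to the BFP-negative cells of 2.45 (1.22 to 4.44), where 17.7% of 5049 genes were higher and 28.9% lower. At 0 h, Ifitm2 had 4 UMIs in 36 BFP-positive T-cell-like cells and a ratio to the BFP-negative ones of 3.11 (0.824 to 8.30), where 20.7% of 4998 genes were higher and 20.2% lower. No member was measured between the 2 times in BFP-positive T-cell-like cells, where 4.15% of 458 genes were higher and 19.2% lower, or between the sorts in B-cell-like cells of 0 h, where 16.8% of 4793 genes were higher and 25.8% lower. Comparisons of so few cells put many genes past the fold. Plasma-cell-like cells kept Ifitm3 at 216 CPM at 12 h and 191 CPM at 0 h, a ratio of 1.13 (0.945 to 1.36), while Ifitm1 had 67 and 8 UMIs at these times, a ratio of 4.80 (2.30 to 11.6), where 10.5% of 3067 genes were higher and 8.61% lower.

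Free RNA of lysed cells can leave UMIs in every droplet, so these low levels were set against Lyz2, a lysozyme gene of monocytes and other myeloid cells. Lyz2 had a UMI in between 10.3% and 14.4% of cells of each of the lymphoid and pDC-like classes of the BFP-negative libraries. At 0 h, Ifitm3 had 24.6 UMIs per 100 UMIs of Lyz2 in monocyte-like cells, against 28.7 (21.8 to 37.3) in B-cell-like and 27.3 (21.5 to 34.3) in T-cell-like cells. NK-or-ILC1-like cells had 33.0 (21.6 to 49.4), and the intervals of these 3 classes hold the value of the monocyte-like cells. pDC-like cells lay above it at 0 h, with 55.2 (35.9 to 83.7). All 4 classes lay above the 10 neutrophil-like cells of that library, which had 12.7 (8.64 to 18.2). At 12 h the ratio was 27.0 in monocyte-like cells and 41.6 (33.2 to 51.8) in B-cell-like, 85.5 (74.8 to 97.6) in T-cell-like, 37.1 (29.1 to 46.9) in NK-or-ILC1-like and 96.1 (78.7 to 117) in pDC-like cells. All 4 lay above that of the monocyte-like cells, but none lay above that of the neutrophil-like cells of the same library beyond its interval, which had 93.6 (77.1 to 114). Ifitm2 in T-cell-like cells had 54.8 (47.0 to 63.7) per 100 UMIs of Lyz2 at 12 h and 20.45 (15.65 to 26.4) at 0 h. Monocyte-like cells had 13.4 and 6.75 of Ifitm2 at these times, and neutrophil-like cells 183 and 17.6. S100a8, a neutrophil gene, stood at 6.80 CPM in T-cell-like cells at 12 h and 0.158 CPM at 0 h, and at 9.59 and 1.55 CPM in B-cell-like cells at these times. NK-or-ILC1-like cells had 5.94 and 2.20 CPM of S100a8 at 12 h and 0 h. Its levels were closer in pDC-like cells, at 1.40 and 0.959 CPM, and in plasma-cell-like cells, at 1.18 and 1.03 CPM. The part of free RNA in the values of either time was not tested. Plasma-cell-like cells lay above monocyte-like and neutrophil-like cells at both times, with 356 (286 to 448) at 12 h and 1860 (989 to 3943) at 0 h.

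The T-cell-like sub-clusters did not share 1 direction between the times, but T7, which was lower at 12 h, drew its molecules from few cells. The ratio of Ifitm3 lay between 2.49 and 5.40 in T1, T2, T3, T5 and T6, on as few as 3 UMIs at 0 h, and was 1.28 (0.569 to 2.97) in T4. T7, led by Cxcl2, Serpinb1a and Cd163l1, was lower at 12 h, with 12 UMIs of Ifitm3 in 140 cells (31.0 CPM), against 14 UMIs in 41 cells at 0 h (102 CPM), a ratio of 0.304 (0.128 to 0.708). In T7 the ratios of Ifitm2 and Ifitm1 were 0.142 (0.0451 to 0.387) and 0.0296 (0.000691 to 0.1997), on 15 and 12 UMIs at 0 h. Over all libraries, 1.05% of the 190 cells of T7 held a UMI of Ifitm1, 4.21% of Ifitm2 and 5.26% of Ifitm3. That 1.05% of cells held all 13 UMIs of Ifitm1 in T7, of which 12 were from the BFP-negative library of 0 h. Few cells thus gave the molecules of T7, and its counting intervals do not cover this. In T4 the ratio of Ifitm2 was 0.721 (0.206 to 2.37). Ifitm1 was concentrated in T2, led by Tnfrsf4, Areg and Ctla4. It had 102 UMIs in 533 cells of T2 in the BFP-negative library of 12 h, of which 15 cells held all and 5 cells held 84.3%. A small number of cells thus gave the Ifitm1 of this sub-cluster. A further cluster of 276 cells, led by Ifit3b, Ifit3, Ifit1 and Isg15 and left unnamed, held 243 cells of the BFP-negative library of 12 h and 33 of that of 0 h. Ifitm3 stood in it at 311 CPM at 12 h and 143 CPM at 0 h, and had a UMI in 19.9% of its cells. Ifitm1 and Ifitm2 were at 13.9 and 24.0 CPM over the whole cluster, and Ifitm6 had 0 UMIs.

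The Ifitm genes are classical interferon targets, and the other genes of that response were read beside them. Interferons act through cell surface receptors and raise the transcription of genes such as Isg15, Ifit1 and Rsad2. Of the 33 list genes among the features, 32 were measured in monocyte-like cells of the BFP-positive libraries, and 14 were higher and 0 lower at 12 h than at 0 h, where 10.8% of all measured genes were higher and 19.6% lower. Their median log2 ratio was 0.52, against −0.10 over all measured genes. Isg20 had 144 CPM at 12 h and 22.8 CPM at 0 h, a ratio of 6.33 (3.74 to 11.7), followed by Oasl1 at 5.58 and Rsad2, which encodes viperin, at 5.24. Among the lowest ratios were 0.672 for Oas1a and 0.713 for Ifi27l2a. In the BFP-negative libraries 6 of 32 were higher and 6 lower, where 11.3% of all measured genes were higher and 10.9% lower, and the median log2 ratio over the list was −0.24 against −0.02 over all measured genes. There Rsad2 had a ratio of 3.36, Oasl1 of 2.92 and Ifit1 of 2.68, while Ifi27l2a had 0.541 and Oas3 0.549. Ifitm3, at 1.09 and 0.685 in the BFP-positive and BFP-negative libraries, lay on the side of the lower list genes in the second of these. In cDC-like cells of the BFP-negative libraries 17 of 29 list genes were higher and 1 lower, where 7.45% of all measured genes were higher and 9.93% lower, and their median log2 ratio was 0.93 against −0.06 over all measured genes. Ifit1 and Rsad2 had ratios of 10.7 and 8.26 there, on 2 and 3 UMIs at 0 h, and Ddx58 of 16.7 on 1 UMI at 0 h, while Bst2 had 0.615 and Irf9 0.838. Between the fractions at 12 h, 7 of 32 list genes were higher in BFP-positive than in BFP-negative monocyte-like cells and 0 lower, where 7.83% of all measured genes were higher and 13.5% lower. The median log2 ratio of the list was 0.31, against 0.0039 over all measured genes. Rsad2, Oas3 and Isg15 were highest there at 1.97, 1.92 and 1.76, and Oas1a, Ly6e and Ifit3b lowest at 0.730, 0.782 and 0.825. Of the 24 measured at 0 h, 0 were higher and 6 lower in the BFP-positive cells, where 14.6% of all measured genes were higher and 10.9% lower, and the median log2 ratio was −0.38, against −0.03 over all measured genes.

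Genes upstream of these targets and genes acting with Ifitm proteins were few, and are read against 10.8% higher and 19.6% lower among all measured genes of the BFP-positive monocyte-like comparison, and 11.3% and 10.9% of the BFP-negative one. Of 11 interferon ligands and receptors, 5 were measured in monocyte-like cells, and 0 were higher and 1 lower at 12 h than at 0 h in the BFP-positive libraries and likewise in the BFP-negative ones. Of the 8 signal transducers, 1 was higher and 2 lower in the BFP-positive libraries, and 0 higher and 2 lower in the BFP-negative ones. Among 7 genes whose proteins are known to act on or with Ifitm proteins, 4 were measured, of which 0 were higher and 2 lower in the BFP-positive libraries, and 0 were past the fold in the BFP-negative ones. Of 5 other genes that restrict viral entry, 3 were measured, with 1 higher in the BFP-positive libraries and 0 past the fold in the BFP-negative ones. In cDC-like cells of the BFP-negative libraries, 0 of 5 ligands and receptors, 0 of 7 transducers, 0 of 7 genes acting with Ifitm proteins and 0 of 4 entry genes were higher, and 0, 1, 2 and 2 of them were lower, where 7.45% of all measured genes were higher and 9.93% lower. Lists of 3 to 8 measured genes are too short to set against these shares.

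Cell by cell, Ifitm3 was the member that climbed with the interferon response count in monocyte-like cells. Monocyte-like cells thinned to 1000 UMIs were grouped by their UMIs of the 33 interferon response genes. Ifitm3 stood at 2884 CPM in 43 cells with 0 such UMIs, 3881 CPM in 277 cells with 1 to 2, 4785 CPM in 1005 cells with 3 to 9 and 6978 CPM in 539 cells with 10 or more. Ifitm2 stood at 2163, 2224, 2279 and 2089 CPM in the same order of groups, Ifitm6 at 465, 574, 607 and 568 CPM, and Ifitm1 at 302, 343, 238 and 154 CPM. Ifitm3 thus climbed over all 4 groups. The intervals of Ifitm2 overlapped between all groups, as did those of Ifitm6, and Ifitm1 was lowest in the group with the most interferon response. Within each library the order of Ifitm3 was the same over the groups that had a value. All 4 groups had one only in the BFP-positive library of 12 h. The BFP-negative library of 12 h lacked the group with 0, and those of 0 h had only the groups of 3 to 9 and of 10 or more. In the BFP-positive library of 12 h Ifitm3 had 6983 CPM in cells with 10 or more and 4821 CPM in cells with 3 to 9. In the BFP-positive library of 0 h these groups had 6622 and 4388 CPM, in the BFP-negative library of 12 h 6331 and 4511 CPM, and in the BFP-negative library of 0 h 8537 and 6369 CPM. At equal interferon counts the BFP-negative library of 0 h was thus the highest of the 4. The counts share the cells and their depth, and sub-cluster M3 is led by genes of this list.

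**Figure D4:**
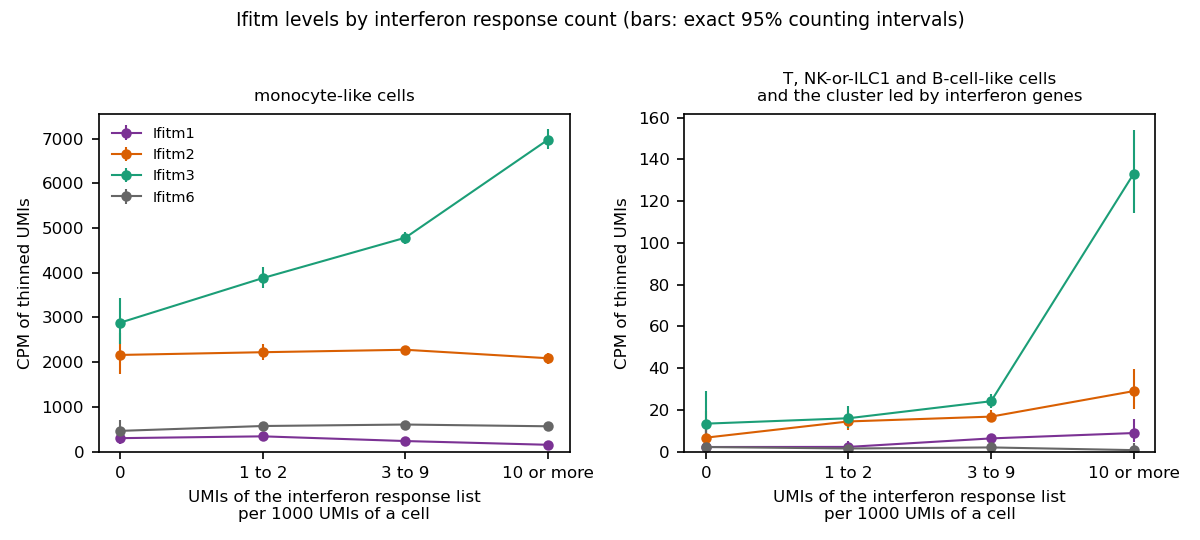
Level of each Ifitm gene (CPM of UMIs after thinning, axis from 0) by the number of interferon response UMIs per 1000 UMIs of a cell, over all 4 libraries, with exact 95% counting intervals; the left panel shows monocyte-like cells and the right panel T-cell-like, NK-or-ILC1-like and B-cell-like cells with the unnamed interferon cluster. Ifitm3 climbed with the interferon response count in both panels, from 2884 to 6978 CPM on the left and from 13.4 to 133 CPM on the right.

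In lymphocytes, pooled with the unnamed interferon cluster, Ifitm3 stood at 13.4 CPM in 447 cells with 0 interferon response UMIs, 16.0 CPM in 2624 cells with 1 to 2, 24.2 CPM in 7864 cells with 3 to 9 and 133 CPM in 1344 cells with 10 or more. The step to the last group was seen at both times, with 174.5 CPM against 29.8 CPM in the group of 3 to 9 in the BFP-negative library of 12 h, and 37.8 against 16.97 CPM in that of 0 h. In cDC-like cells of the BFP-negative library of 12 h the 4 groups had 2850.0, 3848, 3746 and 4240.0 CPM of Ifitm3, a flatter course. At 0 h the order was the reverse, with 1323 CPM in 31 cells with 10 or more and 2522 CPM in 69 cells with 3 to 9.

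The profiles over the 18 sums of a class and library with at least 50 cells put Ifitm2, Ifitm3 and Ifitm6 together and Ifitm1 apart. Pearson correlations of log2(CPM + 1) were 0.949 for Ifitm2 with Ifitm6, 0.918 for Ifitm2 with Ifitm3 and 0.886 for Ifitm3 with Ifitm6, and lay between 0.553 and 0.676 for Ifitm1 with the others. Among 2594 genes, the 5 most like Ifitm1 were Il1r2, a decoy receptor for interleukin 1, at 0.908, then Gapdh, AA467197, Mapk13 and Tspo at 0.875 to 0.769. The 5 most like Ifitm2 were Ier3, Ccl6, Mcemp1, Il1b and Rasgrp4, at 0.976 to 0.954. For Ifitm3 they were Lgals3 (galectin 3) at 0.979, Ly6i, Znhit1, Gpr141 and Ifitm2 at 0.918. For Ifitm6 they were Pi16 at 0.983, Mcemp1, Rasgrp4, 6430548M08Rik and Ifitm2 at 0.949. The sums share libraries and depth, and they span myeloid and lymphoid classes. With Spearman's rho, 2, 2, 3 and 0 of the 5 genes remained for Ifitm1, Ifitm2, Ifitm3 and Ifitm6. Il1r2 had 25.6 CPM in monocyte-like cells of the BFP-positive library of 12 h and 1.63 CPM in those of 0 h, and 47.8 and 1.61 CPM in the BFP-negative libraries of 12 h and 0 h, and is itself on the neutrophil marker list.

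The genes beside the Ifitm cluster had ratios between the times of at most 1.71 where they were measured. Within 100 kb of a member lie 20 other genes, 14 of them among the features. In monocyte-like cells of the BFP-positive libraries 2 were measured, and Psmd13, a proteasome subunit gene, was lower at 12 h with 49.8 CPM, against 84.55 CPM at 0 h, a ratio of 0.589 (0.433 to 0.814), where 19.6% of all measured genes were lower. In the BFP-negative libraries 5 were measured, and Ric8a was past the fold at 1.71 (0.852 to 3.89), where 11.3% of all were higher. In cDC-like cells of these libraries Ric8a, at 0.652 (0.377 to 1.17), was the one gene of 5 past the fold, where 9.93% of all were lower. Between the sorts at 12 h, 3 of 5 were lower in BFP-positive than in BFP-negative monocyte-like cells, where 13.5% of all were lower, and these were Sirt3 at 0.385 (0.245 to 0.5965), Psmd13 at 0.323 (0.273 to 0.381) and Pkp3 at 0.191 (0.106 to 0.326).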

How the data were processed

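Liver leukocytes were sorted on CD45 and the BFP reporter and made into 4 10x Genomics 3' (v2) libraries, per the labels' protocols. The values are raw UMI counts per gene and cell barcode as deposited by the authors. They come from Cell Ranger, version 4.0.0 per the file headers and 3.0.1 per the submitters' processing notes, which also name the mm10 genome, so the version is not settled. Mitochondrial and few-gene barcodes were removed here (under 200 genes, or 10% or more mitochondrial UMIs), which took out 28, 11, 132 and 254 barcodes of the BFP-positive libraries of 12 h and 0 h and the BFP-negative libraries of 12 h and 0 h. Scrublet then marked 2, 1, 464 and 299 doublets. Its automatic threshold marked 0 in the BFP-negative library of 0 h, so the threshold of the BFP-negative library of 12 h was used there, a choice made after seeing the data.

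Cells were scaled to 10000 counts, and 2000 variable genes, without antigen receptor segments, Il22 and the Ifitm genes, gave 30 principal components, 15 neighbours and 23 Leiden clusters at resolution 1 (Python 3.11.15, scanpy 1.11.5, igraph 0.11.9). Clusters were named from marker lists, with rules settled once the clusters were known. For each class and library the UMIs were summed and given as CPM with exact Poisson intervals, and ratios with exact Clopper-Pearson intervals (scipy 1.17.1, numpy 2.4.6). Classes needed at least 50 cells in both BFP-negative libraries, or 30 where a BFP-positive library was compared. With 1 library per group no test was run. Named genes were the members, the 5 genes most like each in profile (at least 100 CPM in a sum), the 3 highest and 3 lowest interferon response ratios and genes within 100 kb. A result that this rule would name is not reported here. The members and lists were chosen with earlier results of these data known. As a check of the ratio code, Poisson counts were simulated for 32285 genes, with 200 genes of at least 200 UMIs changed 3-fold. Of these changes, 100.0% were called past 1.5-fold in either direction for monocyte-like cells of both sorts. The changed genes included none of low count, and molecules were not clumped in few cells. The simulation therefore says nothing of how the calls fare in such cases. Alternatives covered cell filters, doublets, clustering, scaling and leaving out cells.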

Additional observations from a re-analysis of the deposited data

How the results depend on the processing

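No paired analysis was possible because each group has 1 library, whose replicate number only names it. Of 385 ratios recomputed under alternatives, 345 stayed within the counting interval of the reported value, 40 left it, and 0 changed direction on a call. Some ratios near the fold did cross it in 1 direction or the other, so that their call depended on the processing. Some alternatives were chosen after seeing the data, namely leaving out cells with a neutrophil marker UMI, leaving out monocyte sub-clusters led by lymphocyte genes, and sub-clustering cDC-like cells. All causes below were not tested. Ifitm1 in monocyte-like cells kept a ratio of 206 to 282 in the BFP-negative libraries and of 20.6 to 172 in the BFP-positive ones over the alternatives run. In the BFP-negative libraries it had no ratio without the top cell or without neutrophil-marker cells, since 0 UMIs were left at 0 h.

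For 12 h against 0 h in BFP-negative monocyte-like cells, Ifitm3 was 0.659 without doublet removal and 0.666 at resolution 2, both past the fold, and 0.715 without neutrophil-marker cells, where Ifitm6 was 0.595, past the fold. In BFP-positive monocyte-like cells Ifitm1 was 167 at a 5% mitochondrial maximum, 172 at a minimum of 500 genes and 168 without the top cell of each library. Ifitm2 was 1.78 with median-ratio scaling and 1.38 without neutrophil-marker cells. Ifitm3 was 1.01 at resolution 2, 1.17 with median-ratio scaling and 1.04 as a mean over cells. Ifitm6 was 0.838 as a mean over cells and 0.748 without neutrophil-marker cells.

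For BFP-positive against BFP-negative monocyte-like cells of 12 h, means over cells gave 0.738, 0.925 and 1.10 for Ifitm1, Ifitm2 and Ifitm3, and leaving out neutrophil-marker cells gave 0.711, 0.902 and 1.10. No doublet removal gave 1.05 for Ifitm2 and 1.21 for Ifitm3. Ifitm3 was also 1.13 at resolution 2, 1.19 with mitochondrial and ribosomal protein genes out of the total, and 1.12 without the lymphocyte-led sub-clusters.

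In macrophage-like cells Ifitm3 lay below 1, at 0.8003 without doublet removal, 0.840 at the 5% maximum, 0.8665 at 500 genes, 0.8065 at resolution 0.5 and 0.912 with Ifitm genes kept for clustering. Ifitm2 there lay between 0.624 and 0.847, past the fold in 6 of 10 alternatives. For 12 h against 0 h in cDC-like cells, Ifitm1 was 19.5 at resolution 2 and 15.5 without the top cell, Ifitm2 was 1.88 and Ifitm3 1.63 without doublet removal, and Ifitm3 was 1.64 at resolution 2. Between the sorts in cDC-like cells, Ifitm1 was 0.5085 with Ifitm genes kept for clustering and 0.272 without the top cell. Ifitm2 was 0.897 as a mean over cells, Ifitm6 was 0.629 without the top cell, past the fold, and Ifitm3 was 1.07 at the 5% maximum, 1.10 with Ifitm genes kept and 1.06 with median-ratio scaling. For NK-or-ILC1-like cells Ifitm3 lay between 1.22 and 1.65 and was past the fold in 5 of 10 alternatives. In T-cell-like cells of 12 h the ratio of the sorts for Ifitm3 lay between 1.44 and 3.63, within the fold in 1 of 10. For Ifitm2 the same ratio lay between 0.752 and 1.56, past the fold in 2 of 10. With 1 library per group, differences between mice, injections or runs cannot be told apart from those between times or sorts.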

Other observations

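Other family genes were rare or had another pattern. Ifitm5, a gene of bone-forming cells, had 0 UMIs in every class and library, and Ifitm7 had 2 UMIs, both in cDC-like cells of the BFP-negative library of 0 h. Ifitm10 was a gene of NK-or-ILC1-like cells, with 276 CPM at 12 h and 337 CPM at 0 h in the BFP-negative libraries, a ratio of 0.819 (0.740 to 0.906). In T-cell-like cells it stood at 118 CPM at 12 h and 117.5 CPM at 0 h. Monocyte-like cells, where Ifitm3 was highest, held at most 28 UMIs of Ifitm10 in a library.

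A cluster of 74 cells led by Arg1, Pf4, Ccl24 and Spp1 was left unnamed and was found at 12 h, with 44 cells of the BFP-positive and 30 cells of the BFP-negative library. Ifitm3 stood in it at 2612 CPM in the BFP-positive and 2875 CPM in the BFP-negative library. Ifitm1 stood at 103 CPM in the BFP-positive and 634 CPM in the BFP-negative library, the same order as in sub-cluster M5, which shares leading genes with it.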
